A study of Mus musculus with 6 samples.

Results

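Transcripts of 10 genes of the Wnt/beta-catenin pathway were read in undifferentiated mouse embryonic stem (ES) cells of 2 lines. One keeps Dicer, the enzyme that releases mature microRNAs from their precursors, and the other lacks it. The genes were Axin2, Lef1, Sp5, Dkk1, Ctnnb1, Axin1, Gsk3b, Tcf7, Tcf7l1 and Tcf7l2. Their members on the array were the probe sets, groups of short probes against a transcript, whose platform annotation names exactly 1 gene, that gene being one of the 10. This gave 24 probe sets of 45101 on the array, for 9 of the 10 genes and of 18193 genes named, and Tcf7 was not analysed here because no probe set carried its name. The study hybridised amplified total RNA to Affymetrix expression arrays, 3 for a Dicer +/- line named D4 and 3 for a Dicer -/- line that the titles call 27H and the series title 27H10. These are called heterozygous and null cells here. The heterozygous line is the comparison line and itself keeps a single intact copy of Dicer. The labels give no other allele, agent or treatment. With 1 line a genotype, line and genotype cannot be told apart. No label states that replicate arrays are separate cultures. The p-values therefore reflect the spread among these samples alone, and that spread may be technical.

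Wnt ligands bind Frizzled receptors with Lrp5 or Lrp6 and stop a cytoplasmic complex of Axin, Apc, casein kinase and Gsk3 from marking beta-catenin for destruction. The beta-catenin that builds up enters the nucleus, joins the TCF/LEF factors and switches on target genes, several of which feed back on the pathway as inhibitors. In mouse ES cells Wnt signals favour self-renewal, and Tcf7l1, formerly called Tcf3, is known there chiefly as a repressor of pluripotency genes that beta-catenin relieves.

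Axin2, Lef1, Sp5 and Dkk1, all of them textbook target genes of this pathway, fell together in the null cells, each by more than 2-fold. Other known target genes moved in both directions: of 14 measured, 3 fell and 3 rose (Notum, Apcdd1 and Znrf3) by more than 2-fold. Of all genes tested, 6.20% fell and 7.23% rose by the same rule, a limma adjusted p under 0.05 and at least 2-fold. Among those that fell, Cdx2 reached an intensity of 32 on heterozygous arrays alone. Without the size limit 7 of the 14 were lower and 3 higher, against 24.3% and 24.5% of all genes. Beta-catenin mRNA (Ctnnb1) differed little, and Tcf7l1 was slightly higher. To show what lies in front of Axin2, Lef1, Sp5 and Dkk1, the 250 bases before the annotated transcript start of each are printed below, 5′ to 3′ on the gene's strand, from RefSeq on GRCm38.p6. Capitals mark the core letters bound by TCF/LEF factors, searched as CTTTGA and CTTTGT on both strands (a capital TCAAAG or ACAAAG is the same core on the opposite strand).
Sp5, chr2:70474673-70474922, plus strand: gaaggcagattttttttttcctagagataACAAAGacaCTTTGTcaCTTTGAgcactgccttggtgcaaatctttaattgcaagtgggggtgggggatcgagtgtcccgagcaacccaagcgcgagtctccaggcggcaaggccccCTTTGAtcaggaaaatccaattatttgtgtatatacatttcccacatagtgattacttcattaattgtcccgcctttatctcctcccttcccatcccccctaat
Dkk1, chr19:30549497-30549746, minus strand: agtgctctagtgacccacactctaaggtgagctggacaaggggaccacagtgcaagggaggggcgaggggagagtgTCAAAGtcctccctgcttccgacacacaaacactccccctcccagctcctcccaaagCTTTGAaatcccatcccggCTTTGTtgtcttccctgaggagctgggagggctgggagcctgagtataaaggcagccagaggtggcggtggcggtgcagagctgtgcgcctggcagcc
Axin2, chr11:108920099-108920348, plus strand: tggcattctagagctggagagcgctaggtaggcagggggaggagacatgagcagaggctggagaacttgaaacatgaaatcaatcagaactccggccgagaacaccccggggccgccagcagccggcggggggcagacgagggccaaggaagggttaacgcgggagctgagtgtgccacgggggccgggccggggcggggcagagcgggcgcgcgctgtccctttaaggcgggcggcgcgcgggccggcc
Lef1, chr3:131110047-131110296, plus strand: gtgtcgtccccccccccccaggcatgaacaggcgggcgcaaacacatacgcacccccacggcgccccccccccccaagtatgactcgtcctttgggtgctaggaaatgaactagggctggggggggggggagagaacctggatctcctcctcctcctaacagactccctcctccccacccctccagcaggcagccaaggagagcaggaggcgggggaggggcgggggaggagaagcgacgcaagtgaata
Sp5 held 4 matches, whose first bases lie 221, 212, 204 and 104 bases before the start, and the first 3 are packed close together. Dkk1 held 3, at 174, 117 and 98 bases. Lef1 has 4 RefSeq windows, and the one at the outermost annotated start is shown; this choice was made for every gene. Axin2 and Lef1 held 0 in the windows shown, which says only that the letters are not there. Of the 9 members with a RefSeq window, Tcf7l1 and Gsk3b held 1 match each and Ctnnb1, Tcf7 and Tcf7l2 held 0. Either core was found in 27.6% of 32817 such windows of 250 bases, CTTTGA in 13.8% and CTTTGT in 16.5%. At least 3 matches were found in 0.777%. A match is a run of letters and not evidence of binding.

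**Figure D1:**
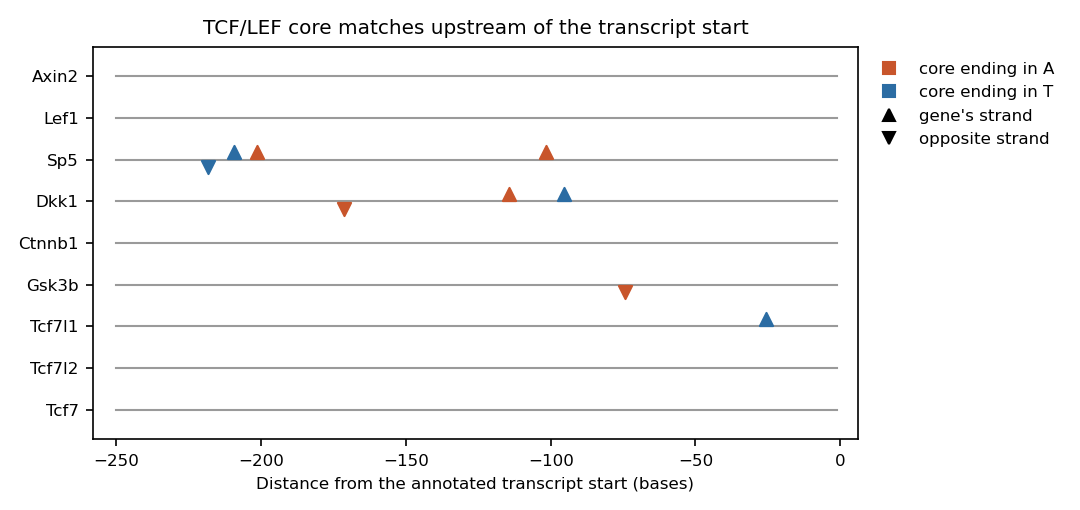
Matches to the TCF/LEF core in the 250 bases before the annotated transcript start of the 9 genes with a RefSeq window; the x axis is the distance from the start in bases, triangles are matches, colour gives the last base of the core and the triangle's direction gives the strand. Sp5 holds 4 matches and Dkk1 holds 3, while Axin2 and Lef1 hold 0.

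The deposited values are intensities in arbitrary linear units, and the number of arrays limits their precision. Every array had a trimmed mean of 500, with medians of 49.0 to 52.7 in heterozygous and 44.9 to 46.5 in null cells. Pearson correlations across the 26545 tested probe sets, themselves no independent replicates, ran from 0.957 to 0.964 for arrays of the same line. For arrays of different lines they ran from 0.918 to 0.923, so no array stood apart from its group. The labels give all 6 arrays the same day of analysis. Dicer1, read by probe set 1427941_at, was at 1117, 1124 and 1053 in heterozygous and 1256, 1132 and 1203 in null arrays (limma adjusted p 0.264), and the arrays overlapped for 1460571_at (adjusted p 0.962). The deleted part of the gene is not given in the labels, so neither probe set need lie in it and neither checks the genotype. All 10 ES cell markers examined, among them Pou5f1, Nanog and Sox2, reached an intensity of 32 on some array, and limma called 0 of them at adjusted p under 0.05 with a log2 difference of at least 1. Without the size limit, Fgf4 was higher in null cells (log2 difference 0.52, limma adjusted p 0.00093). Klf4 (-0.30, 0.0415), Utf1 (-0.27, 0.00332) and Tdgf1 (-0.23, 0.00583) were lower. Of all 12927 genes tested, 24.5% were higher and 24.3% lower at that adjusted p.

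Of the 24 probe sets, 21 were tested with limma, having a log2 intensity of 5 or more, which is 32 on the linear scale, on 3 or more of the 6 arrays. A probe set is called here when its adjusted p, over all 26545 tested, is under 0.05 and its log2 difference, null minus heterozygous, is at least 1 in size. Limma called 4 of the 21 lower and 0 higher. Of all tested probe sets, 12.3% were called, 6.32% lower and 5.97% higher. Centring each array on its median would turn the share of higher calls from 48.6% into 65%. By the adjusted p without a size limit, 4 members were higher and 4 lower, against backgrounds of 18.9% and 21.2%, and at an unadjusted p under 0.05, 4 were higher and 7 lower, against 22.3% and 25.7%. The median difference of the 21 was -0.05, and that of all tested probe sets -0.06. One of the 21 passed the filter through the heterozygous arrays alone. In 7 probe sets every null array was below every heterozygous one (background 27.7%), and in 4 every null array was above (23.6%).

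**Figure D2:**
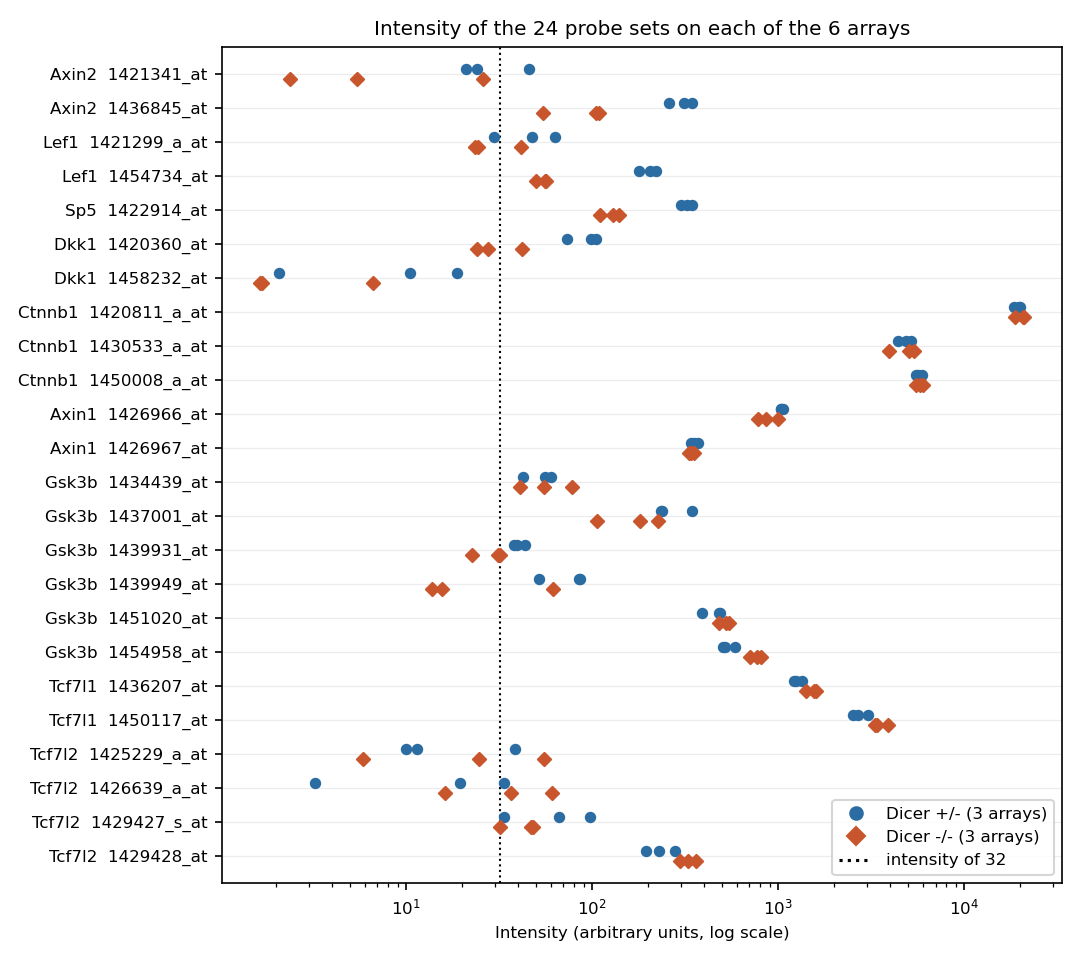
Intensity of each of the 24 probe sets (rows) on the 3 Dicer +/- arrays (circles) and the 3 Dicer -/- arrays (diamonds), on a log axis in arbitrary units; the dotted line marks an intensity of 32. For Axin2 1436845_at, Lef1 1454734_at, Sp5 and Dkk1 1420360_at every null array lies below every heterozygous array, whereas the lines overlap for all 3 Ctnnb1 probe sets.

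The target genes come first. Axin2 encodes a scaffold of the destruction complex that is itself induced by Wnt signals, and it is widely used as a readout of the pathway. Its probe set 1436845_at read 345, 259 and 313 in the heterozygous arrays and 104, 54.5 and 109 in the null arrays. All null arrays lay far below the lowest heterozygous array. The means were 306 ± 43.6 and 89.4 ± 30.3 (SD, n = 3), 3.56-fold lower in null cells (limma, log2 difference -1.83 ± 0.27 SE, adjusted p 0.000322). The other Axin2 probe set, 1421341_at, was too dim to test: it read 20.99, 24.1 and 45.5 in heterozygous and 25.7, 5.44 and 2.39 in null cells, and only 1 of its 6 values reached 32.

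Lef1 encodes the TCF/LEF factor that mostly acts as an activator with beta-catenin and is also a target of it. Probe set 1454734_at read 204, 220.4 and 179 in heterozygous and 55.6, 56.2 and 49.8 in null arrays. The null values were tightly grouped and well below the heterozygous ones. The means were 201 ± 20.7 and 53.8 ± 3.55 (SD, n = 3), 3.73-fold lower (limma, log2 difference -1.90 ± 0.21 SE, adjusted p 5.35e-05). The second Lef1 probe set, 1421299_a_at, lay near the floor, at 29.5, 47.4 and 63.2 against 41.5, 23.4 and 24.3. Its arrays overlapped, and its difference of -0.64 had a 95% interval from -1.80 to 0.52 (limma adjusted p 0.369). The -1.90 of 1454734_at lies just outside that interval.

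Sp5, a zinc finger factor of the Sp/KLF family that Wnt signals induce directly, has a single probe set, 1422914_at. It read 343, 322 and 301 in heterozygous and 109.9, 140.0 and 129 in null arrays, so that the groups were clearly apart. The means were 322 ± 21.1 and 126 ± 15.2 (SD, n = 3), 2.56-fold lower (limma, log2 difference -1.36 ± 0.16 SE, adjusted p 6.91e-05).

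Dkk1 is a secreted inhibitor that binds Lrp5 and Lrp6, and is itself a Wnt target. Its probe set 1420360_at read 98.1, 105 and 73.5 in heterozygous and 23.9, 27.5 and 42.1 in null arrays. The groups did not overlap, but 2 of the null values lay under 32. The log2 difference was -1.59 ± 0.37 (SE; limma adjusted p 0.00646), which is 3.01-fold. Raising values under 32 to 32 made it 2.60-fold. The other probe set, 1458232_at, stayed under 32 on all 6 arrays, from 1.64 to 18.8, and was not tested.

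The 4 calls were kept in every alternative in which the probe set was tested, 18 for Axin2, Lef1 and Sp5 and 17 for Dkk1, which did not reach the stricter filter. The log2 difference ranged from -2.01 to -1.51 for Axin2, from -1.98 to -1.63 for Lef1, from -1.43 to -1.20 for Sp5 and from -1.83 to -1.21 for Dkk1. The highest adjusted p was 0.0402, for Dkk1.

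Markers of other cell types moved between the lines as well. Of all 12927 genes tested, 6.20% were called lower and 7.23% higher. Of 8 primitive endoderm markers, Dab2, Gata6 and Lama1 were called lower and 0 higher. The lines overlapped for Gata4, Sox17, Sox7, Pdgfra and Foxa2. The summed intensity of the 8 was 1819 to 2521 in heterozygous and 673 to 720 in null arrays. Without Lama1, the brightest, it was 932 to 1431 and 382 to 424, of which Dab2 averaged 683 and 155. Of 7 trophectoderm markers, Krt18 was called lower, and so was Cdx2, which passed the filter through the heterozygous arrays alone. Cdx2 and Eomes here, and Mixl1 among the mesoderm markers, are counted again below among the other known target genes. The sums were 11067 to 12358 in heterozygous and 5913 to 6412 in null arrays. They are mostly Krt8 (means of 4700 and 2705) and Krt18 (5244 and 1896). Krt8 and Eomes were lower without overlap but short of the size limit, at log2 differences of -0.80 and -0.58. The lines overlapped for Tfap2c (0.04) and Hand1 (-0.43), and Elf5 stayed under 32 on all arrays. Of 10 fibroblast markers 8 were measured, Acta2 and Col1a1 being called lower and Dcn higher. Col1a1 and Col3a1 passed the filter through the heterozygous arrays alone, which by itself keeps their lines from overlapping. Postn stayed under 32. Every null array was below every heterozygous one for 5 of the 8, among them Col1a1 and Col3a1, and above for 2 (27.7% and 23.6% of all tested probe sets). The fibroblast sums of 8193 to 8691 and 8584 to 8701 are mostly Fn1, and without it they were 1478 to 1730.0 in heterozygous and 1040 to 1202 in null arrays. Without Fn1 the sums are mostly Acta2, which averaged 1116 in heterozygous and 542 in null arrays. Dcn went the other way, averaging 31.0 and 263. Limma called 0 of 3 mesoderm markers measured, and of 4 neural markers measured Pax6 was called higher. Mixl1 (mesoderm) was lower and Sox1 (neural) higher without overlap but short of the size limit. Their log2 differences were -0.98 and 0.90 (limma adjusted p 0.0124 and 0.0181). The lines overlapped for Mesp1, Kdr, Nes and Tubb3. The part of all these cell type markers in the fall of the 4 target genes was not tested. In bulk RNA such as this, fewer cells of a type and less RNA per cell cannot be told apart.

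For beta-catenin and the core of its destruction complex, limma called 0 of the probe sets tested, 3 of Ctnnb1, 2 of Axin1 and 6 of Gsk3b. At an unadjusted p under 0.05, 1 was higher and 3 lower, against 22.3% and 25.7% of all tested probe sets. Ctnnb1, which encodes beta-catenin, was bright on all arrays. Its probe set 1420811_a_at read 19799, 18517 and 19550.4 in heterozygous and 20562, 20864 and 18610 in null arrays. The log2 differences of its 3 probe sets were 0.05, -0.01 and 0.01 (limma, adjusted p 0.55, 0.953 and 0.893). The 95% intervals were -0.09 to 0.19, -0.25 to 0.23 and -0.13 to 0.15, so a 2-fold change of the transcript lay outside all of them. The arrays overlapped for all 3. With arrays centred on their medians 1420811_a_at alone passed the adjusted p, at 0.21 (0.0318). The measurement is of mRNA and says nothing of the amount or place of the protein.

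Axin1, the constitutive scaffold of the complex, read 1056, 1034 and 1034 in heterozygous and 781, 858 and 997 in null arrays with probe set 1426966_at. All null values were lower, but the difference missed the threshold (limma, log2 -0.25 ± 0.10 SE, adjusted p 0.0737). The adjusted p was under 0.05 in 4 of 18 alternatives, among them the fit without null replicate 3 (0.0124) and the replicate block (0.0395). The other probe set, 1426967_at, averaged 353 ± 16.03 and 341 ± 11.3 (SD, n = 3), which is -0.05 on the log2 scale. Axin1 and Axin2, related scaffolds with the same role, thus gave different results on this array, at -0.25 and -0.05 against -1.83, although the difference between the genes was not tested.

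Gsk3b, one of the kinases that mark beta-catenin, has 6 probe sets, and these disagreed. Probe set 1454958_at read 515, 584 and 503 in heterozygous and 708, 769 and 808 in null arrays. No null array overlapped the heterozygous ones, and limma gave a log2 value of 0.51 ± 0.10 (SE; adjusted p 0.00269) for null minus heterozygous cells. In contrast, 1437001_at read 345, 238 and 233 against 180.3, 227 and 106, also without overlap (log2 difference -0.71, limma adjusted p 0.0568). It passed in 3 of 17 alternatives, among them the fit without null replicate 2 (0.0219) and the replicate block (0.0125). Probe set 1439949_at read 85.3, 86.0 and 52.1 against 13.7, 61.3 and 15.6 (log2 difference -1.62, limma adjusted p 0.0553). The 2 dim null values carry that difference, which was -0.87 with values under 32 raised to 32. Its call was gained in 4 of 16 alternatives, among them the fit without null replicate 2 (-2.31, adjusted p 0.00814) and the replicate block (0.0312). The other 3 probe sets were at 0.20, 0.10 and -0.51, with adjusted p values of 0.235, 0.855 and 0.441, and the last, 1439931_at, passed the filter through the heterozygous arrays alone. The 6 probe sets thus give Gsk3b no single direction.

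Among the TCF factors, Tcf7l1 was higher in null cells by less than 2-fold. Its probe set 1450117_at read 2512, 2685 and 3040.2 in heterozygous and 3376, 3308 and 3894 in null arrays. The lines did not overlap, and limma gave 0.36 ± 0.09 (SE) on the log2 scale, adjusted p 0.00981. The other probe set, 1436207_at, read 1338, 1251 and 1216 against 1565, 1594 and 1409, again without overlap, at 0.26 ± 0.08 (adjusted p 0.0292). The first missed 0.05 in 1 of 18 alternatives, where eBayes used no trend (adjusted p 0.0662). The second missed it in 5 of 17, which include the fits without heterozygous replicate 2 (0.0868), heterozygous replicate 3 (0.0809), null replicate 1 (0.0838) and null replicate 2 (0.108). In all of these the sign was kept.

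Tcf7l2, formerly called Tcf4, gave 1 probe set with a difference at the adjusted p. This was 1429428_at, at 195, 228 and 277 in heterozygous and 362, 326 and 297 in null arrays, all null values being higher. Limma gave 0.50 ± 0.16 (SE) on the log2 scale, adjusted p 0.028. It missed 0.05 in 5 of 18 alternatives, which include the fits without heterozygous replicate 1 (0.097), heterozygous replicate 2 (0.0707), null replicate 1 (0.0904) and null replicate 2 (0.0673). A further pair lay near the floor with overlapping arrays: 1429427_s_at differed by -0.53 (adjusted p 0.388) and 1426639_a_at by 1.37 with a 95% interval from -0.95 to 3.69. The last, 1425229_a_at, reached 32 on 2 arrays, read from 5.90 to 55.1 and was not tested.

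The rest of the pathway was read from 9 lists with 122 further genes, 6 of them on a pair of lists, at 1 probe set a gene, the brightest. Of these genes 98 were measured. Limma called 7 higher and 9 lower over 12927 genes, of which 7.23% were called higher and 6.20% lower. By the adjusted p without a size limit 20 were higher and 30 lower, against backgrounds of 24.5% and 24.3%. At an unadjusted p under 0.05 the backgrounds, for the counts given below, were 27.3% higher and 27.4% lower. The median difference was -0.23, and -0.01 over all genes. The 4 genes Cdx2, Fzd9, Wnt5a and Wnt8a passed the filter through the heterozygous arrays alone, so the count of lower genes rests in part on the filter. It was 5 without heterozygous replicate 1 and 5 without heterozygous replicate 2.

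**Figure D3:**
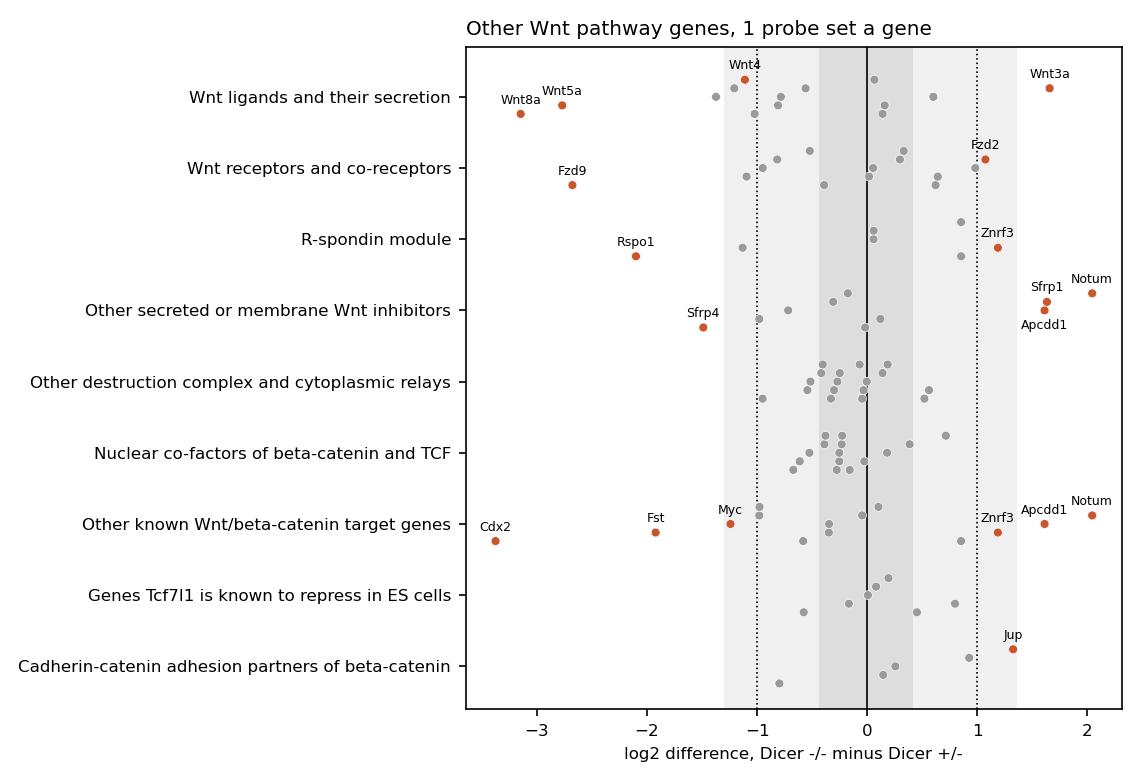
Log2 difference (Dicer -/- minus Dicer +/-) of each measured gene (point) of the 9 pathway lists, called genes coloured and named, dotted lines at a difference of 1. Dark and light bands hold the middle 50% and 90% of all 12927 genes tested. Called genes lie on both sides of 0 among the ligands, receptors, inhibitors and targets.

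Of the other known target genes, 14 were measured, 3 called higher and 3 lower, with a median of -0.35. Without the size limit 3 were higher and 7 lower. Follistatin (Fst), a secreted binder of activin, read 453, 503 and 449 in heterozygous and 106, 123 and 144 in null arrays, 3.79-fold lower (log2 difference -1.92, limma adjusted p 1.71e-06). Myc, the growth regulator, was named after its values were seen: the means were 2096 ± 32.9 and 889 ± 68.7 (SD, n = 3), 2.36-fold lower in null cells. Cdx2, a caudal homeobox factor, was 2.09-fold lower with values under 32 raised to 32. The 3 that rose all encode inhibitors that act at the cell surface or outside it. Notum, a secreted enzyme that strips the lipid from Wnt proteins, read 395, 371 and 447 in heterozygous and 1725, 1534 and 1727 in null arrays. That is 4.12-fold higher, opposite in direction to Axin2 (limma, log2 difference 2.04 ± 0.10 SE, adjusted p 5.43e-08). Apcdd1, a membrane inhibitor, rose from 225 ± 75.7 to 678 ± 171 (SD, n = 3), and Znrf3, a ubiquitin ligase that removes Frizzled receptors, from 142 ± 28.6 to 322 ± 51.0. As a mean over its probe sets Znrf3 was at 0.66 and was not called.

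Among the other secreted or membrane inhibitors, which include Notum and Apcdd1, 10 were measured, 3 called higher and 1 lower, or 3 and 2 without the size limit. Sfrp1, a secreted decoy that binds Wnt proteins, read 712, 776 and 754 in heterozygous and 2435, 2223 and 2292 in null arrays, 3.10-fold higher with a limma adjusted p of 4.88e-08. Its relative Sfrp4 fell from 274 ± 6.61 to 98.6 ± 15.9 (SD, n = 3), 2.81-fold lower. Dkk1 was thus one of several inhibitors that differed, and they did not share a direction.

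Of the ligands and their secretion factors, 14 were measured, 1 called higher and 3 lower, or 2 and 3 without the size limit, with a median of -0.80. Wnt3a, a ligand that activates the beta-catenin branch, read 27.7, 49.1 and 36.4 in heterozygous and 127, 90.7 and 135 in null arrays, 3.004-fold higher with values under 32 raised to 32 (limma adjusted p 0.00189). Wnt4 fell from 303 ± 66.5 to 140.1 ± 28.2 (SD, n = 3), at -1.11 on the log2 scale. It fell short of 1 in size after median centring (-0.96) and in the fits that left out heterozygous replicate 2 (-0.97) or null replicate 3 (-0.93). Wnt8a and Wnt5a, both dim, were 2.28-fold and 1.75-fold lower with values under 32 raised to 32, and Wnt5a was no longer called on that scale or without null replicate 1 (adjusted p 0.0785).

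Among the receptors, 14 measured, Fzd2 rose from 370.4 ± 9.38 to 785 ± 124 (SD, n = 3). This is 1.07 on the log2 scale, which was 0.95 without null replicate 1 and 0.99 as a mean over its probe sets. Fzd9 was 2.41-fold lower with values under 32 raised to 32 and lost its call when eBayes used no trend (adjusted p 0.0609). The remaining 12 were not called. Without the size limit 5 receptors were higher and 4 lower. Of 7 genes of the R-spondin module, which boosts Wnt signals by sparing Frizzled from Znrf3, Znrf3 was called higher and Rspo1 lower, which are also the counts without the size limit. Rspo1, an R-spondin ligand, read 37.8, 87.5 and 76.7 against 32.8, 21.1 and 4.66, at a limma adjusted p of 0.0429. It was not called in 8 of 17 alternatives, among them the fits without heterozygous replicate 2 (adjusted p 0.162), heterozygous replicate 3 (0.129) and null replicate 3 (0.0794). In the fit over all probe sets its adjusted p was 0.054.

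Of 17 other relays and destruction complex genes, limma called 0. Without the size limit 2 were higher and 4 lower, and 3 and 4 by an unadjusted p under 0.05. Dvl1, a Dishevelled adaptor that carries the signal from Frizzled, had a log2 difference of -0.95 (adjusted p 0.000121), and Fbxw11, a beta-TrCP ubiquitin ligase subunit that recognises beta-catenin, of 0.56, which was 0.14 (adjusted p 0.141) as a mean over its probe sets. Dvl1 was called without null replicate 1 (-1.02) and without null replicate 2 (-1.02). Of 15 nuclear co-factors, limma called 0. Without the size limit 2 were higher and 7 lower, and 2 and 8 by an unadjusted p under 0.05. Bcl9, a co-activator that bridges beta-catenin and Pygopus, differed by 0.71 (limma adjusted p 0.0153), and Ctnnbip1, a small inhibitor of the contact between beta-catenin and TCF, by -0.67 (0.00237). Bcl9 missed 0.05 as a mean over its probe sets (0.25, adjusted p 0.457), without heterozygous replicate 1 (0.0503) and without null replicate 3 (0.0611). Ctnnbip1 was called, at -1.11, when probe sets with names ending in _a_at, _s_at or _x_at were left out.

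Of 7 genes that Tcf7l1 is known to repress in ES cells, limma called 0. Without the size limit 3 were higher and 1 lower, and at an unadjusted p under 0.05 3 and 2, with a median of 0.08. Klf2, a pluripotency factor, read 7882, 8114 and 7494 in heterozygous and 13511, 14136 and 13166 in null arrays (limma, log2 difference 0.80, adjusted p 1.16e-06). The T-box factor Tbx3 differed by -0.58. Of 5 adhesion partners of beta-catenin, plakoglobin (Jup), its close relative at cell junctions, rose from 943 ± 47.7 to 2375 ± 345 (SD, n = 3), 2.50-fold. Without the size limit 2 of the 5 were higher and 1 lower. N-cadherin (Cdh2) differed by 0.93 and p120-catenin (Ctnnd1) by -0.80. Cdh2 passed as a call after median centring (1.08) and in the fits that left out null replicate 1 (1.01) or null replicate 2 (1.03).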

How the data were processed

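The authors deposited 1 intensity for each probe set and array, and its values have the range of linear, not logged, data. All arrays share a mean of 500 after trimming 2% at each end, while their quantiles differ, so shape differences between arrays remain. The submitters' processing notes name GCRMA and no other tool; where it entered is not given in the sources used here, and detection calls were not used here. The 64 control probe sets were left out. Probe sets were named from the platform annotation (34945 with 1 gene, 932 with several, 9160 with none).

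Values were turned into log2, as the design allowed. Probe sets reaching 5 in at least 3 of 6 arrays were fitted with limma 3.58.1 in R 4.3.3 (eBayes with an intensity trend, two-sided, group as the only term, Benjamini-Hochberg adjustment), and the pathway lists with the brightest probe set a gene. Means ± SD are of linear intensities, and folds come from log2 means. Members and lists were chosen with earlier results of these data known. All member genes are named. From each list the text names at most 4 called genes by size, or, with fewer than 2 called, up to 2 more by size at an adjusted p under 0.05. Groups come from the titles. Alternatives covered filters, scales, variance priors, normalization, weights, probe set choice, thresholds, a replicate block and leaving out each array.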

Additional observations from a re-analysis of the deposited data

How the results depend on the processing

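The 4 member calls held in every alternative that tested them. Member calls numbered 8 at the adjusted p alone, 4 of them higher, and 4 to 5 over the 6 fits that each left out 1 array. Over all probe sets, 3262 were called, against 10633 at the adjusted p alone (5013 higher, 5620 lower) and 1736 with 1 probe set a gene (934 higher, 802 lower), a setting that tests fewer features. With a log2 filter of 7, which also tests fewer, 980 were lower. Pathway calls numbered 50 at the adjusted p alone (20 higher, 30 lower). Lower pathway calls numbered 5 with the filter of 7 and 5 to 10 over the fits without 1 array; without a heterozygous array the genes measured through those arrays alone drop out of the filter. Centring arrays on their medians moved the median over all probe sets by 0.16 and the share of calls that were higher from 48.6% to 65%.

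Signs turned for small differences, none of them past an adjusted p of 0.05. Axin1 1426967_at was at 0.10 with arrays centred. Ctnnb1 1430533_a_at was at 0.0085 with quantile normalization, 0.14 centred and 0.032 with array weights, and between -0.10 and 0.12 without 1 array. Ctnnb1 1450008_a_at was at -0.0073 with array weights and between -0.016 and 0.045 without 1 array, and Gsk3b 1434439_at between -0.14 and 0.33.

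The arrays of the lines share replicate numbers, and the labels do not state whether these pair the arrays. Deviations of same-numbered arrays correlated at 0.03, 0.03 and 0.08, each array best with its own number. The replicate block gave 3313 calls, 5 among the members and 17 in the pathway lists, the added member being Gsk3b 1439949_at (adjusted p 0.0312).

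Intensities near 32 limit Dkk1, the dim probe sets of Lef1, Gsk3b and Tcf7l2, and Wnt5a, Wnt8a, Fzd9, Cdx2 and Rspo1, whose folds depend on the floor.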

Other observations

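Several pathway genes that differed are read by more than 1 probe set, and not all of these read alike. All 5 Apcdd1 probe sets were called higher by limma, at log2 differences of 1.08 to 1.92. Of 5 Sfrp1 probe sets, 4 were called higher and all lay between 0.87 and 1.63. Both Fst probe sets were called lower, at -2.01 and -1.92, and all 3 Fzd2 probe sets were between 0.81 and 1.09. The Znrf3 probe sets differed from each other, at 0.14 and 1.19, and so did those of Tbx3, which ran from -1.36 to -0.18 over 4 probe sets. Those of Bcl9 (-0.21 and 0.71) and Fbxw11 (-0.13 to 0.56 over 4) had opposite signs. Notum, Jup and Sfrp4 rest on 1 tested probe set each.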
